A study of Mus musculus with 3 samples.

Results

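The replication-dependent histone genes were read as a gene family in the cytosolic RNA of mouse macrophages. Members were the protein-coding genes of the GENCODE M21 annotation whose symbol starts with Hist1h, Hist2h, Hist3h or Hist4h, and the rule used no measured value. It found 67 of 55536 annotated genes: 6 of class H1, 18 of H2A, 18 of H2B, 12 of H3 and 13 of H4. The Hist1 cluster on chromosome 13 holds 54 of them, Hist2 on chromosome 3 holds 10, Hist3 on chromosome 11 holds 2, and Hist4 on chromosome 6 holds 1.

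The study has 1 group of 3 libraries. Macrophages grown from the bone marrow of strain C57BL/6J, which are primary cells, were stimulated for 60 min with lipid A at 100 ng/ml, and RNA of the cytosolic fraction was sequenced after removal of ribosomal RNA, from 1 µg of RNA per library. Lipid A is the part of bacterial lipopolysaccharide that Toll-like receptor 4 detects. No genetic change is listed, and age and sex were not recorded. The labels number the libraries as biological replicates 1 to 3 with a separate biosample each and a donor entry in common, and whether each came from its own mouse is not stated. All spreads, and the errors behind the p-values, therefore rest on the difference between these samples, which may be technical. The p-values test a gene's level against the median gene of the libraries, and not a difference between libraries. With no unstimulated, nuclear or other group, the design allows levels within the group and the spread between its libraries, and no effect of lipid A can be read from it.

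Replication-dependent histones package newly made DNA, so their genes are transcribed chiefly in S phase. H2A, H2B, H3 and H4 form the core of the nucleosome, and H1, the linker histone, binds the DNA where it enters and leaves. Their messages mostly lack introns and a poly(A) tail and end in a conserved stem-loop, which the stem-loop binding protein, Slbp, holds for processing, export and translation. Outside S phase the messages are degraded. Some of these genes can also give longer, polyadenylated messages, which are known from cells that have left the cycle. Libraries made from total RNA after ribosomal depletion, as here, do not require a poly(A) tail.

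The stem-loop is shown first because it is the element that defines the family. The transcripts were searched on their own strand for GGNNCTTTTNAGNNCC, where N is any base. It was found in 44 of the 67 members, each time in the annotated 3′ UTR. Anywhere in a transcript it was in 72 of 21901 protein-coding genes (0.329%), which are these 44 members and 28 other genes. In the lines below the stem-loop is in capitals, with 5 transcribed bases on either side, from the M21 transcripts (GRCm38), written as DNA on the transcribed strand. They are the linker gene with the highest level, 2 H2A genes that behaved differently between libraries, 2 H4 genes that did so too, and the H2A gene with a stem-loop of its own.
Hist1h1c: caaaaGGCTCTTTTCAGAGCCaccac
Hist2h2aa2: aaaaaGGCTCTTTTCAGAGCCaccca
Hist3h2a: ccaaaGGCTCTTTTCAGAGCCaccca
Hist1h4h: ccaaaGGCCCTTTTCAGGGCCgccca
Hist1h4i: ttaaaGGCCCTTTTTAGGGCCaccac
Hist2h2ac: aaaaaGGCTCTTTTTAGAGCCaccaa
The form of Hist1h1c, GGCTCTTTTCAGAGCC, was in 26 members of 4 classes: 3 H1, 10 H2A, 8 H2B and 5 H3 genes. The form of Hist1h4h, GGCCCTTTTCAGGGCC, was in 7 members, all of them H4 genes. All 11 H4 genes with a match had one of 3 stems found in no member of another class. The remaining forms were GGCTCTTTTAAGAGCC in 6 members, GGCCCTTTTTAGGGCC in 2, Hist1h4i and Hist2h4, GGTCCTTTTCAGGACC in 2 and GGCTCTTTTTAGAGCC in 1. Of the 23 members without a match, 19 have an annotated model that stops at most 48 bases past the stop codon. The sequence beyond the end of these models was not searched. The other 4 of the 23, Hist1h2bc, Hist2h2be, Hist1h3g and Hist1h4a, have a longer 3′ UTR with no match.

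Replicate 1 had 63944236 counts in annotated genes, replicate 2 had 71989793 and replicate 3 had 69305836. The 67 members held 22055, 26059 and 39039 expected counts, or 0.0345% (0.0340 to 0.0349), 0.0362% (0.0358 to 0.0366) and 0.0563% (0.0558 to 0.0569) of them, with 95% Wilson intervals that cover counting error only. Expected counts are the read counts that the authors' quantifier assigned to each gene, with shared reads divided between copies. TPM, their length-scaled form, summed to 368, 307 and 655 over the members. Replicate 3 was the highest on each of these measures, and replicates 1 and 2 lay close together. Where counts are compared between libraries they were normalised with TMM factors to the mean library. The sums over all members were then 22922, 25934 and 37790, and the highest library was 1.65-fold the lowest. All 10 macrophage markers were above the library median in the level test described next and none had a 2-fold range between libraries, the widest being that of Itgam (1.74-fold, replicate 3 highest), while erythroid (other than Tfrc), T, NK and B cell markers were at or near 0. Mitochondrial genes took 0.46, 0.43 and 0.45% of the counts.

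Levels were tested against each library's own median gene (9.06, 5.74 and 6.85 TPM) with limma over 9110 nuclear-encoded protein-coding genes with a mean of at least 1 TPM. A gene was called only where log2(TPM + 0.1) lay more than 1 above or below the median, at a Benjamini-Hochberg adjusted p under 0.05. Of the members, 53 were tested. Only 3 were called above the median, against a background of 26.3% of all genes tested, and 10 below it, against 24.4%. The other 40 were not called in either direction, and the median member lay at -0.51 (log2), where all genes tested have a median of 0 by construction. Without replicate 3, 19 were called below the median. With every gene of any TPM in the fit, so that the median gene was a lower one, 14 were called above it. For these other fits there is no share over all genes to set beside the counts. Another 14 members had a mean under 1 TPM and were not tested.

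Among the linker histones, Hist1h1c (H1.2; chr13:23738808-23740367, plus strand, mm10) was the most counted gene of the whole family. It had 7476, 6525 and 7331 expected counts and 61.24, 32.56 and 42.44 TPM, a mean of 45.4 ± 14.6 TPM (SD, n = 3). Its TPM followed the median gene of each library, and its level (log2) was 2.61 ± 0.07 (SE) above the median (limma adjusted p = 1.94e-06). The other somatic H1 genes were far lower. Hist1h1a had 173, 232 and 739 counts and 5.84 ± 4.47 TPM. Hist1h1b had 159, 152 and 531 counts and 4.36 ± 3.11 TPM. Hist1h1e had 273, 401 and 999 counts and 2.62 ± 1.66 TPM. In each of these genes replicate 3 stood above both other libraries, while Hist1h1c was lowest in replicate 2. Hist1h1d had 338, 313 and 890 counts but only 0.59 ± 0.34 TPM, because its annotated model is 7425 bases long, the longest of the family. Hist1h1t, the testis H1, had 0, 2 and 1 counts.

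By mean TPM, H2A held the highest gene of the family. Hist2h2aa2 (chr3:96239749-96240276, minus strand) had 1064, 1917 and 2887 counts and 36.7, 40.35 and 72.37 TPM, and was 2.73 ± 0.23 above the median (limma adjusted p = 0.000351). This rank rests on replicate 3: in replicate 1 Hist1h1c (61.24 TPM) and Hist1h2bc (45.61 TPM) were higher, and without replicate 3 its level was 2.40, against 2.61 for Hist1h1c. Its coding sequence is identical to that of Hist2h2aa1, which had 450, 522 and 587 counts and 11.6 ± 2.03 TPM, so the division of reads between this pair is uncertain. Their sum, 1513, 2439 and 3473 counts, does not depend on that division. Both also share windows of 100 bases with Gm20634, a noncoding transcript (100% and 88.3% of their windows), and the split of reads with it is uncertain too. Hist1h2ap had 206, 386 and 811 counts (13.9 ± 8.65 TPM) and Hist1h2af 95.8, 151 and 338 (8.38 ± 5.19 TPM). Hist3h2a (chr11:58954685-58956830, plus strand) had 1661, 1639 and 1710 counts and 7.36 ± 1.93 TPM, was at the median gene's level (0.02 ± 0.05, not called), and differed less between libraries than any other H2A gene with enough counts to compare. Outside the Hist1 cluster, Hist2h2ac had 104, 156 and 476 counts (6.44 ± 5.05 TPM) and Hist2h2ab 6.00, 6.74 and 31.0 (0.51 ± 0.48 TPM). Hist1h2ac and Hist1h2an had means of 0.49 ± 0.31 and 0.93 ± 1.07 TPM. The testis gene Hist1h2aa had no count in any library, where 3 counts, the limit that a count of 0 allows, would be 0.0469, 0.0417 and 0.0433 CPM. Hist1h2ao was listed at 0 as well, but its coding sequence is identical to that of Hist1h2ap, so a true 0 and reads given to the copy cannot be told apart. In the second set of tables it had 3.94, 26.6 and 5.45 counts.

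H2B was led by Hist1h2bc (chr13:23684199-23692908, plus strand), with 3905, 4559 and 3821 counts and 45.61, 32.44 and 31.66 TPM. It was 2.33 ± 0.07 above the median (limma adjusted p = 5.01e-06), and replicate 3 was its lowest library. Hist1h2bc and Hist1h2be are the 2 members whose leading model has more than 1 exon, and the annotated 742-base 3′ UTR of Hist1h2bc holds no stem-loop match. Hist1h2bg followed with 283, 351 and 655 counts (8.71 ± 3.61 TPM), Hist1h2bb with 178, 220 and 434 (7.70 ± 3.49 TPM) and Hist1h2bn with 79.1, 106 and 239 (6.75 ± 3.90 TPM). In these 3 genes replicate 3 was again highest. In the Hist2 cluster, Hist2h2be, whose 2192-base 3′ UTR also lacks a match, had 534, 541 and 417 counts. At 1.77 ± 0.59 TPM it was called below the median (-1.99 ± 0.10, limma adjusted p = 9.32e-05). Hist2h2bb, in the same cluster, had 45.5, 69.9 and 167 counts (4.46 ± 2.93 TPM). Hist1h2be, Hist1h2bh and Hist1h2bp had means of 0.90 ± 0.35, 0.96 ± 0.55 and 0.23 ± 0.21 TPM. Hist3h2ba had 8, 2 and 8 counts, and Hist1h2ba, the testis H2B, had none.

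No H3 or H4 gene was called above the median. The H3 genes of highest TPM were Hist1h3i (8.07 ± 5.90 TPM), Hist2h3b (7.64 ± 4.21), Hist1h3c (6.44 ± 3.6) and Hist1h3h (6.35 ± 5.16), none of them called. Hist1h3i had 90.2, 135 and 372 counts, Hist2h3b 117, 245 and 433, Hist1h3c 163, 278 and 561, and Hist1h3h 72, 87.3 and 307. In counts replicate 3 was the highest and replicate 1 the lowest in all 4 genes. By TPM replicate 3 was again the highest, but replicate 2 was the lowest for Hist1h3i (4.87, 4.46 and 14.87) and Hist1h3h (3.89, 2.88 and 12.28). Hist2h3c2 had 214, 361 and 794 counts (4.54 ± 2.74 TPM). Hist2h3c1 had 316, 505 and 459 counts and was called below the median (-1.67 ± 0.12, limma adjusted p = 0.00158), but the second tables gave it 87.7, 89.5 and 95.3. Hist1h3d lay under 1 TPM (0.95 ± 0.53).

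The H4 genes all encode the core subunit that pairs with H3. Hist1h4h had 334, 545 and 979 counts and 19.4 ± 9.31 TPM, and lay at 1.34 ± 0.25 (limma adjusted p = 0.208, not called). Hist1h4m (15.6 ± 7.41 TPM), Hist1h4f (14.6 ± 9.01 TPM) and Hist1h4k (12.1 ± 8.53 TPM) were not called either. All 4 were higher in replicate 3 than in the other libraries. Hist1h4k, whose 312-base model is the shortest of the family, had 68.1, 126 and 287 counts here and 161, 267 and 544 in the second tables. Hist1h4i (chr13:22040636-22041362, minus strand) was the exception, with 155, 161 and 170 counts, and its 3 libraries did not differ beyond a factor of 1.03. Hist2h4 had 85, 157 and 302 counts (1.02 ± 0.56 TPM) and was called below the median (-2.79 ± 0.28, limma adjusted p = 0.000694), the lowest level of any tested member. Hist4h4, the lone gene of its cluster, had 26.0, 41.0 and 103 counts and 0.17 ± 0.11 TPM.

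**Figure D1:**
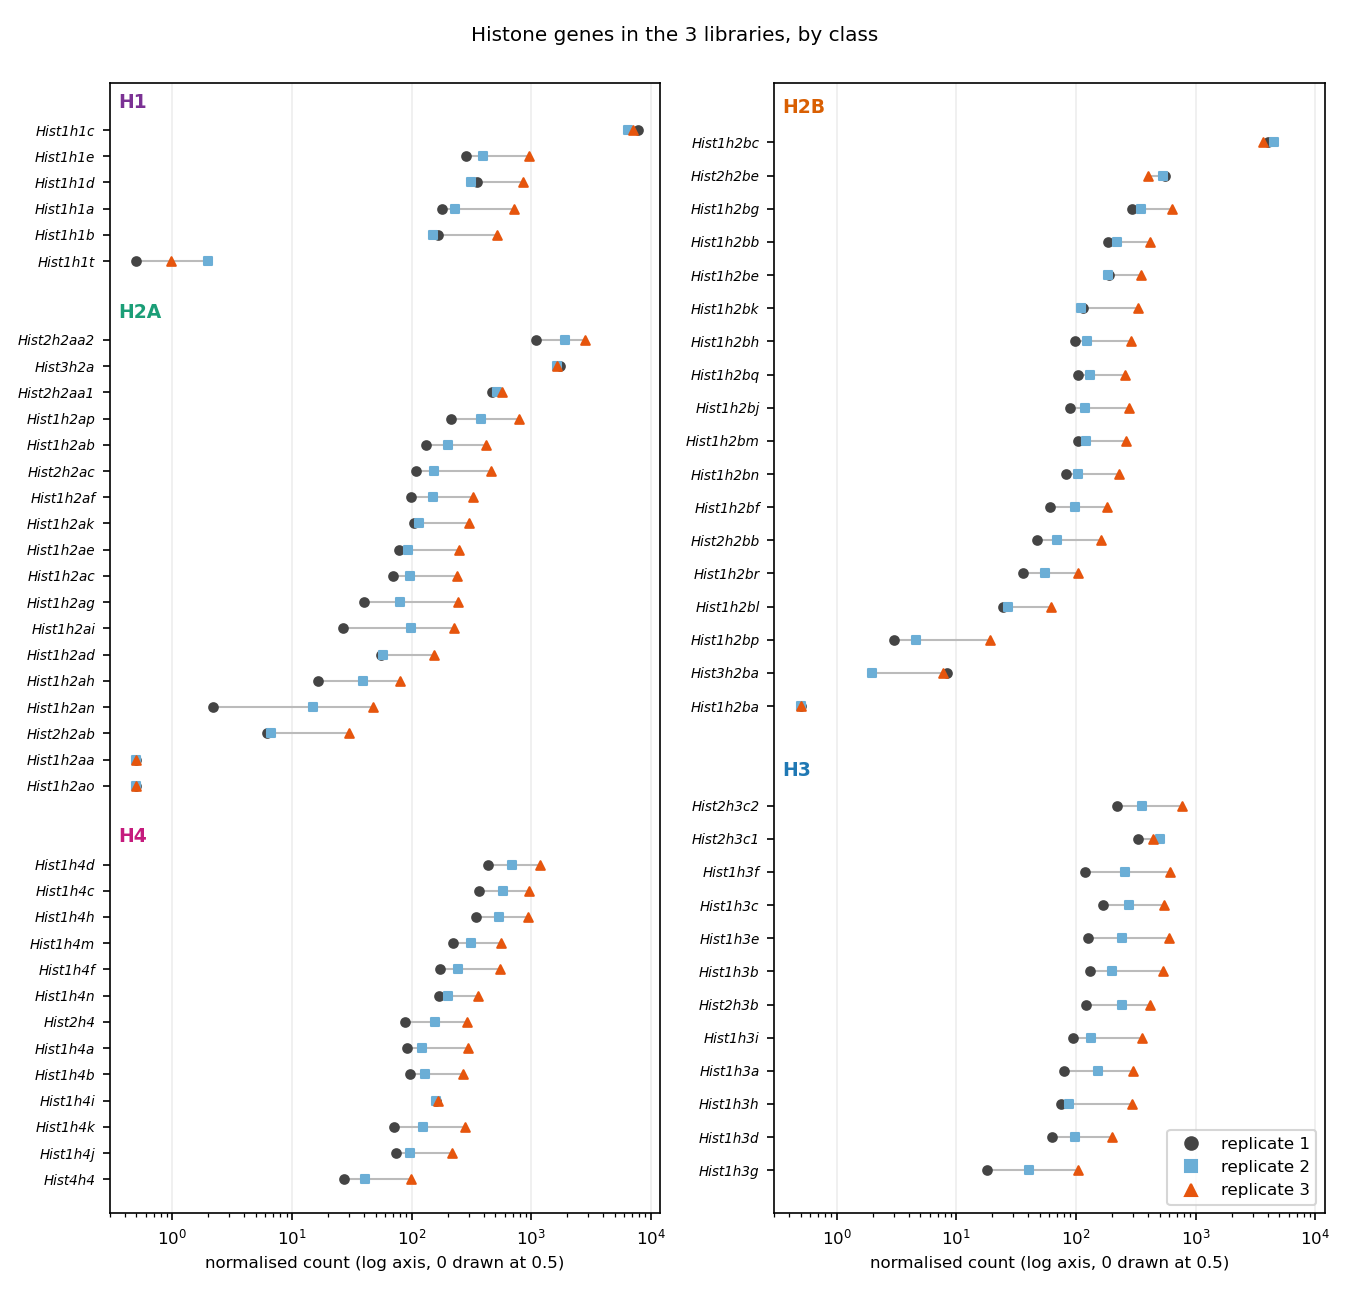
Normalised expected count of each of the 67 histone genes (log axis) in replicates 1, 2 and 3, with genes grouped by class and ordered by mean, and a grey line from the lowest to the highest library. Replicate 3 lies to the right of the other libraries in most rows, while Hist1h1c, Hist1h2bc, Hist3h2a, Hist2h2be and Hist1h4i have their 3 symbols close together.

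The makeup of the family by class depended on the measure. By expected counts H1 was the largest class, with 38.2, 29.3 and 26.9% of the histone counts (31.4 ± 6.0, SD, n = 3), followed by H2B (24.3 ± 3.4%), H2A (20.9 ± 2.1%), H4 (13.2 ± 3.1%) and H3 (10.2 ± 3.5%). By TPM, which allows for length, H2A was the largest with 26.0, 30.3 and 30.8% (29.0 ± 2.6), then H4 (22.9 ± 2.3%), H2B (22.4 ± 3.0%), H1 (14.0 ± 4.6%) and H3 (11.7 ± 2.8%). H2B and H4 did not differ beyond their spread on this scale, and neither did H1 and H3. On both measures H1 and H2B took their lowest share in replicate 3, and H2A, H3 and H4 their highest. The labels give a fragment size range of 250 to 400 bases, and models run from 312 to 7425 bases, so TPM divides short members by a small effective length. The counts were also concentrated in a few genes. Hist1h1c and Hist1h2bc alone held 51.6, 42.5 and 28.6% of the histone counts, and the 10 most counted genes 73.8, 67.9 and 54.8%.

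**Figure D2:**
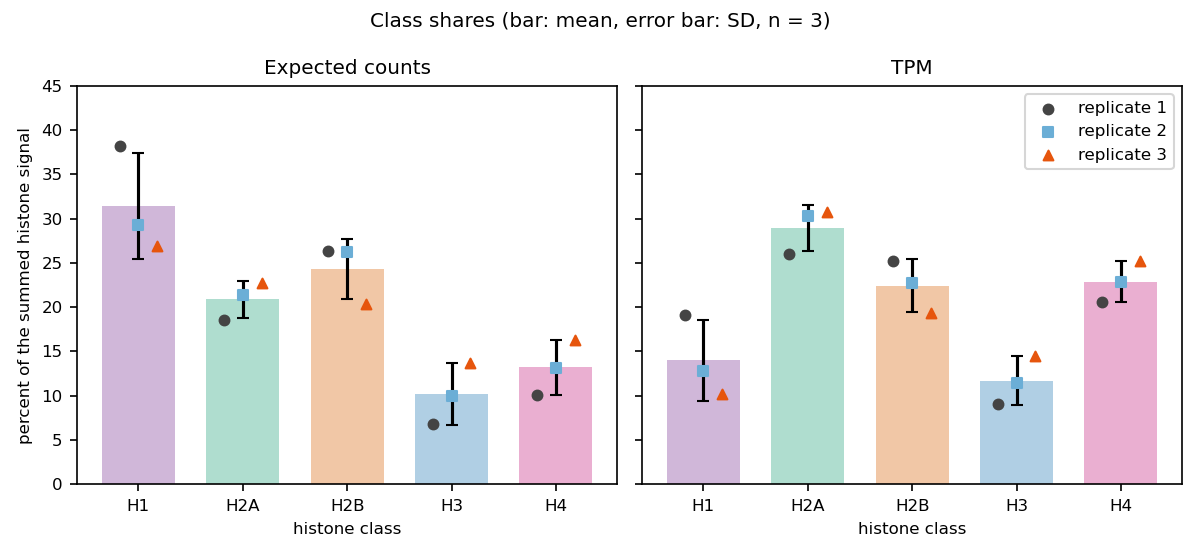
Percent of the summed histone signal in each class, by expected counts (left) and by TPM (right); bars are means, error bars SD (n = 3), symbols the libraries. H1 holds 31.4% of counts but 14.0% of TPM and H4 13.2% but 22.9%, and replicate 3 has the highest H2A, H3 and H4 shares on both measures.

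The libraries differed more in the histone genes than in most others. edgeR kept 59 members with enough counts, and their median biological coefficient of variation (BCV, the spread between libraries beyond counting error, shrunk toward the trend) was 0.400, against 0.122 for all 13026 genes kept, of which 2.23% exceeded the members' median. In 51 of the 59 members the highest library was at least 2-fold the lowest in normalised counts, or 86.4%, where the background was 7.09% of all genes kept and 8.02% of the genes with a mean normalised count of 100 to 1000, the range of 48 members. Replicate 3 was the highest library in all 51. Of the 924 genes kept with such a range, it was the highest in 348, which are 2.67% of all genes kept. Among all 59 members it was the highest in 54 (background 34.0%). Replicate 1 was the lowest library in 50 members, replicate 2 in 7 and replicate 3 in 2. The median ratio of the highest to the lowest library was 3.13 among members and 1.19 among all genes kept. This measure was chosen after the values were seen and carries no test. Without replicate 3, 5 of the 59 members differed 2-fold (background 3.49%), and the median BCV was 0.261. Without replicate 1, 36 did (background 3.59%), and without replicate 2, 51 did (background 4.49%).

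By class, the summed normalised counts of the highest library were 3.36-fold those of the lowest in H3, 2.66-fold in H4 and 2.02-fold in H2A, but 1.34-fold in H1 and 1.27-fold in H2B. The leading genes of H1 and H2B were even between libraries: without Hist1h1c the 5 other H1 genes summed to 943, 1100 and 3160 counts, and without Hist1h2bc the 17 other H2B genes summed to 1921, 2267 and 4124. The range was at least 2-fold in 4 of 5 H1, 12 of 14 H2A, 12 of 15 H2B, 11 of 12 H3 and 12 of 13 H4 genes kept. The highest BCV was that of Hist1h2ai (0.608, with 25.6, 100 and 235 counts), an 8.57-fold range. Since 88.4% of that gene's 100-base windows also occur in another transcript, its range depends on how reads were divided, and the second tables gave 59.6, 167 and 365.

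The 8 members under 2-fold were Hist1h4i (1.03-fold), Hist3h2a (1.06), Hist1h1c (1.20), Hist2h2aa1 (1.22), Hist1h2bc (1.23), Hist2h2be (1.37), Hist2h3c1 (1.53) and Hist1h2be (1.90). Together they held 14678, 14637 and 14858 counts, and the 51 others 7358, 11391 and 24073. Hist3h2a had the lowest BCV of the family, 0.083. Hist2h2aa1 and Hist2h3c1 share 88.3% and 100% of their 100-base windows with other transcripts, first of all Gm20634, an annotated noncoding transcript that overlaps both on the same strand and had 1097, 1316 and 1159 counts itself. The second tables gave Hist2h2aa1 537, 879 and 948 counts, a range of 1.70-fold, and Hist2h3c1, at a lower level, a range of 1.05-fold. All 8 stayed under 2-fold in the second tables. Hist3h2a overlaps Trim17 on the same strand, but Trim17 had only 6, 14 and 8 counts. Hist1h2be shares 496 exon bases with Hist1h1e on the same strand. No exon of another annotated gene overlaps Hist1h1c, Hist1h2bc, Hist2h2be or Hist1h4i. Among the varying members, the antisense gene Gm20628 (109, 111 and 343 normalised counts) covers Hist2h2bb and Hist2h3b whole, and Gm20632 (175, 248 and 229 normalised counts) covers Hist2h2aa2. Reads of these genes and of the members they cover cannot be told apart without strand, whose use is not stated.

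**Figure D3:**
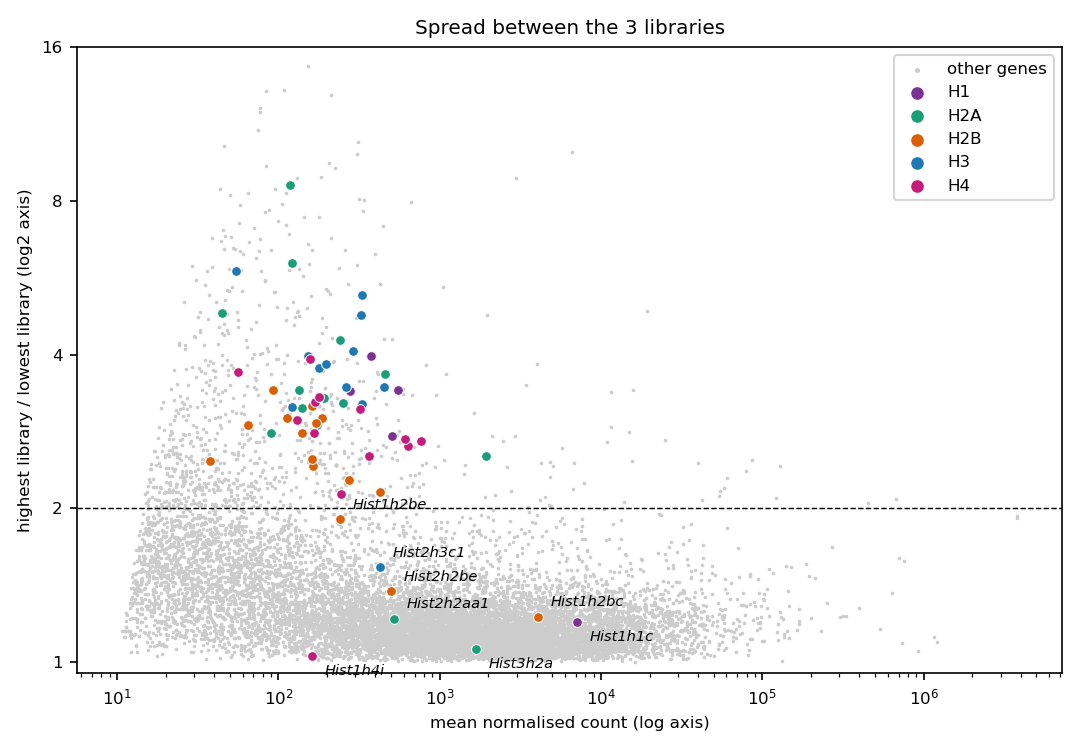
Ratio of the highest to the lowest library (log2 axis) against mean normalised count (log axis) for the 59 histone genes kept, coloured by class, and all other genes kept (grey); the dashed line is 2-fold. Most histone genes lie above the line at levels where most other genes lie below it, and the 8 named members lie under it.

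The annotated 3′ end separated these genes only in part. Of the members whose model ends within 100 bases of the stem-loop, 19 of 20 kept had a 2-fold range. So had all 15 kept that have no match and a model stopping at most 48 bases past the stop codon. Of those whose model runs over 100 bases past the stem-loop, 15 of 20 had. Of the 4 with no match in a longer 3′ UTR, 2 had. Hist1h1c runs 840 bases past its stem-loop, Hist3h2a 1643 and Hist1h4i 330, and Hist1h2bc and Hist2h2be have no match, so these 5 even genes have models with a long 3′ end. Of the other members under 2-fold, Hist2h3c1 and Hist1h2be run 1167 and 1861 bases past the stem-loop, but Hist2h2aa1 ends 35 bases past it. However, Hist1h1e runs 1153 bases past its own and ranged 3.41-fold. A gene-level count does not show where in the model the reads lie, so whether the long ends were present in these cells was not measured.

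Genes of the cell cycle were highest in the same library. All 27 genes of an S phase list (replication factors and nucleotide synthesis) were highest in replicate 3 (background 34.0%). In 8 of them the range was at least 2-fold (background 7.09%, or 2.67% with replicate 3 also the highest), and the median ratio was 1.77. Rrm2, a subunit of ribonucleotide reductase, had 234, 244 and 817 normalised counts, and the cyclin Ccna2 333, 336 and 993. Pcna, the sliding clamp of DNA polymerase and the list's highest gene, had 9902, 10896 and 12386, a range of 1.25-fold. Mcm6 (2150, 2208 and 3669) and Mcm3 (1220, 1245 and 1854), helicase subunits, lay between. Of 10 G2 and M phase genes, 9 were highest in replicate 3 and 7 at least 2-fold, against the same backgrounds, with a median ratio of 2.43. Topoisomerase Top2a had 1684, 1532 and 4147 normalised counts and the mitotic kinase Cdk1 486, 497 and 870. The exception was Mki67, a proliferation marker, with 23552, 19434 and 19144. Between replicates 1 and 2 no gene of either list differed 2-fold. In bulk RNA, more cells in S phase and more histone RNA per cell cannot be told apart. The part of these genes in the histone difference was not tested.

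In levels the S phase list was mostly low: of 22 genes tested, 13 were called below the median, 1 (Pcna) above it, and 8 were not called. Of all genes tested, 24.4% were called below and 26.3% above. Of 9 G2 and M phase genes tested, 6 were below, 1 (Mki67) above and 2 not called. Rrm2, Ccna2, Ccne2, Asf1b, H2afx, Lsm1, Itgam, Col1a1 and Pdgfra were named after their values were seen.

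Of 43 genes kept in 4 lists of histone gene transcription, message processing, message decay and chaperones, 2 had a 2-fold range between libraries, or 4.65%, a share near the background of 7.09%. Slbp had 1344, 1284 and 1364 normalised counts, a range of 1.06-fold, and lay at the median gene's level (-0.05 ± 0.05, not called). Of the 14 processing genes, which include the U7 snRNP and the cleavage complex, none had a 2-fold range. In levels, 2 of 12 tested were above the median and 1 below it. The background here and for the lists that follow was 26.3% above and 24.4% below. Snrpb and Snrpe, core snRNP proteins, were called above the median (2.00 ± 0.07 and 1.90 ± 0.06, limma adjusted p = 1.48e-05 and 7.9e-06), and the scaffold Sympk was not (1.08 ± 0.06, adjusted p = 0.246). Of 9 transcription genes, 1 had a 2-fold range: Ccne2, a cyclin of S phase entry, with 107, 88.8 and 273 normalised counts. In levels, 1 of 6 tested was above the median and 3 below it. Nfya, a subunit of the CCAAT-binding factor, was above the median (1.52 ± 0.06, limma adjusted p = 0.000165), and Nfyc and Cdk2 were not called (-0.45 ± 0.06 and -0.65 ± 0.06). The 4 decay genes found, among them the helicase Upf1 (-0.10 ± 0.05) and the 2 exonucleases Eri1 (-0.65 ± 0.05) and Dis3l2 (-0.90 ± 0.06), all not called, ranged at most 1.12-fold, and 1 of the 4, Lsm1, was called below the median (-2.13 ± 0.07, limma adjusted p = 8.48e-06). Of 16 chaperones, which carry histones to chromatin, only Asf1b had a 2-fold range (147, 131 and 285 normalised counts). In levels, 2 of 15 tested were above the median and 3 below it. Nap1l1 and Atrx were above the median (2.07 ± 0.06 and 1.30 ± 0.07, limma adjusted p = 6.4e-06 and 0.00658), and Rbbp7 was not called (1.12 ± 0.07).

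Replication-independent variants are mostly made throughout the cycle from polyadenylated messages. The 11 genes listed summed to 851, 601 and 633 TPM, where the family had 368, 307 and 655. They were above the family in replicates 1 and 2 and close to it in replicate 3. Of 9 tested 5 were above the median (background 26.3%) and none below it (background 24.4%). H3f3b and H3f3a, both encoding H3.3, had 396.21, 302.22 and 316.23 TPM and 291.09, 185.41 and 184.54 TPM. They lay 5.55 ± 0.10 and 4.90 ± 0.09 above the median (limma adjusted p = 1.79e-07 for each). H2afz, the H2A.Z gene, followed with 50.27, 33.91 and 45.16 TPM (2.57 ± 0.07, adjusted p = 2.06e-06). All 12 H3 members together had 33.3, 35.0 and 95.3 TPM. Of 10 variants kept, none had a 2-fold range, and the widest was that of H2afx (439, 564 and 844 normalised counts, 1.92-fold), whose message is known to exist in a stem-loop and a polyadenylated form.

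**Figure D4:**
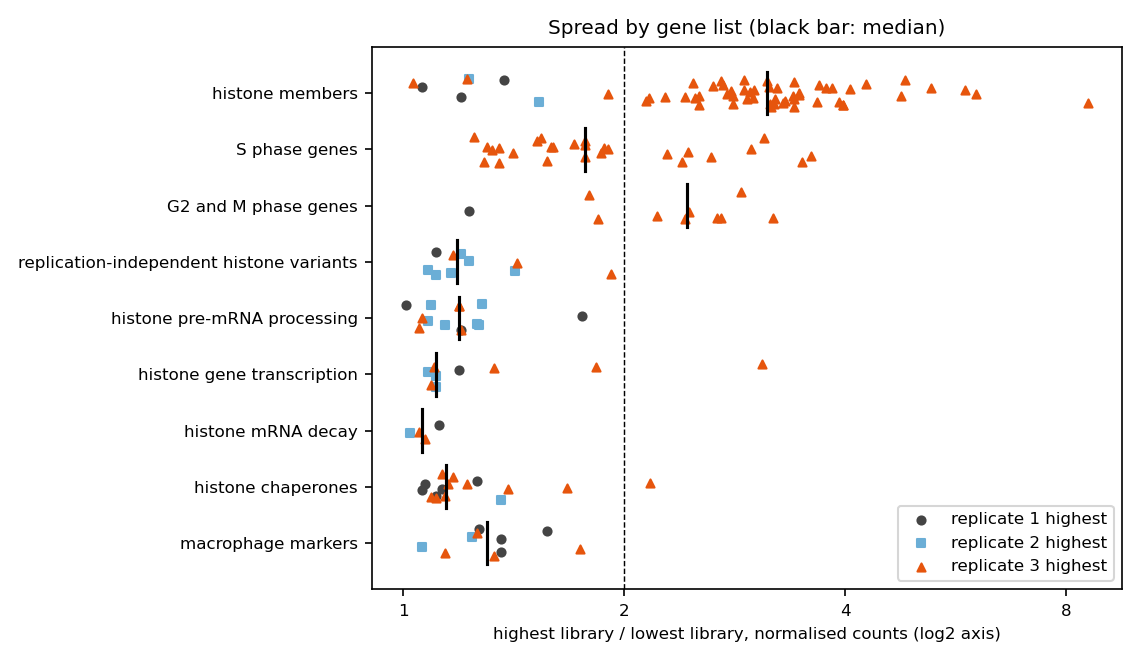
Ratio of the highest to the lowest library in normalised counts (log2 axis) for the genes kept in each list drawn, coloured by the library that was highest, with the list's median as a black bar and 2-fold dashed. Histone members (median 3.13), G2 and M phase genes (2.43) and S phase genes (1.77) stand to the right, nearly all with replicate 3 highest; the 6 other lists drawn have medians from 1.06 to 1.30. Lists of other cell types, with at most 5 genes kept, are not drawn.

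Markers of other cells were given the same reading. Neutrophil markers summed to 32.5, 28.7 and 25.5 TPM (S100a8 11.27, 10.40 and 8.65, S100a9 17.83, 15.90 and 13.91, Ngp 2.27, 1.71 and 1.77). In normalised counts they summed to 1183, 1541 and 1189, with replicate 2 the highest. The erythroid list summed to 231, 140 and 222 TPM, nearly all Tfrc, the transferrin receptor that macrophages and dividing cells also express (230.85, 139.88 and 222.20). Klf1 had 1, 7 and 2 counts, Alas2 2.82, 0 and 0, and Hba-a1, Hbb-bs and Hbb-bt none. Stem and progenitor markers summed to 1.07, 0.36 and 0.92 TPM, with Kit at 0.87, 0.20 and 0.63, Flt3 at 0.12, 0.05 and 0.13 and Gata2 at 0.03, 0.05 and 0.08. T and NK cell markers summed to at most 0.10 TPM (Lck at most 0.07, Cd3d and Nkg7 at most 0.02), B cell markers to at most 0.89 (Cd79b 0.60, 0.31 and 0.53, Igkc at most 0.32, Ms4a1 at most 0.03) and stroma and endothelium markers to at most 0.47 (Pecam1 at most 0.24, Cdh5 at most 0.19, Col1a2 at most 0.07). Col1a2 and Col1a1, the fibroblast collagen genes, were highest in replicate 3, with 4.2, 19.9 and 41.6 and 1.0, 17.9 and 22.3 normalised counts. These were too few for the count filter, and their part in the histone difference was not tested. Of the other stroma and endothelium markers, Pdgfra had 1, 0 and 1 counts. Pecam1 was highest in replicate 1 (65.5, 57.7 and 64.9 normalised counts) and Cdh5 in replicate 2 (27.0, 54.7 and 36.8). No gene of these lists with enough counts to compare was highest in replicate 3 with a 2-fold range. The macrophage markers were led by Lyz2 (7402.25, 3457.57 and 4235.73 TPM), Cd68 (850.60, 572.41 and 657.30) and Cd14 (574.01, 444.84 and 435.87).

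Many H2A and H2B genes stand head to head and share the DNA between their starts, so each pair is a comparison of neighbours within a library. There were 13 such pairs, with starts 175 to 659 bases apart, 12 of them an H2A and an H2B gene. Of the 11 pairs with counts in both genes and every library, 9 were within 5-fold of each other in mean counts. Hist1h2bf and Hist1h2ad differed 1.27-fold and Hist1h2ak and Hist1h2bn 1.25-fold. The widest gap was between Hist1h2bc and Hist1h2ac, with starts 250 bases apart. Hist1h2bc had 58.16, 47.18 and 15.55 times the counts of Hist1h2ac, 30.00-fold in the mean. The gap was smallest in replicate 3 because Hist1h2ac was higher there (67.2, 96.6 and 246 counts), while Hist1h2bc was not. Hist2h2be had 5.13 and 3.46 times the counts of Hist2h2ac in replicates 1 and 2, but in replicate 3 Hist2h2ac was the higher gene, 1.14-fold. Counts do not allow for length, and the Hist2h2be model has 2620 bases against 520. By TPM Hist2h2ac was higher in every library (3.68, 3.37 and 12.26 against 2.45, 1.51 and 1.35). Hist1h2bc was above Hist1h2ac by TPM too (45.61, 32.44 and 31.66 against 0.33, 0.29 and 0.84). In both pairs the H2B gene lacks a stem-loop match and its partner has one. Hist1h2ap was 7.09-fold its partner Hist1h2br, with both highest in replicate 3, but both have near-identical copies elsewhere.

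**Figure D5:**
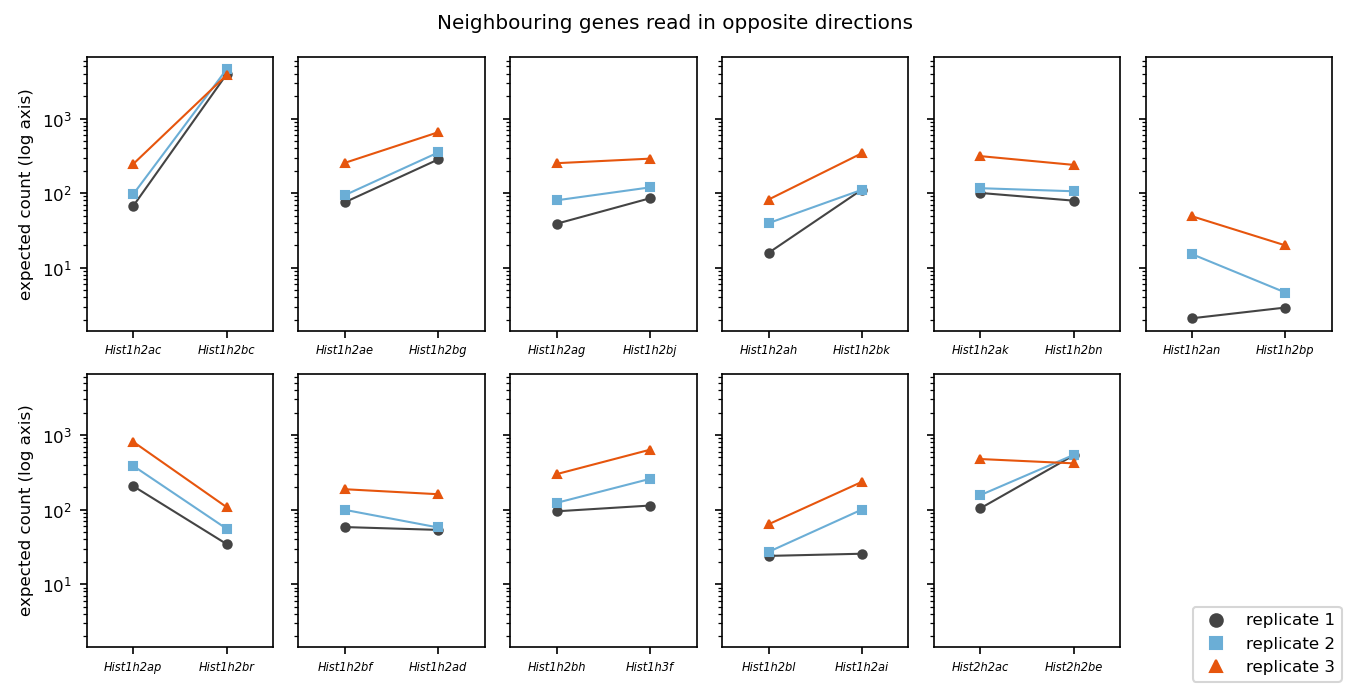
Expected counts (log axis) of the 2 genes of each of the 11 head-to-head pairs with counts in every library, the minus-strand gene on the left and the plus-strand gene on the right, a line per library. The lines are close to parallel in most panels with replicate 3 on top, whereas in the Hist1h2ac and Hist1h2bc and the Hist2h2ac and Hist2h2be panels they converge on the H2B gene.

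The sequence between the starts of that widest pair is printed because 2 genes with so different values are read from it in opposite directions. It is the 239 bases at chr13:23683960-23684198, on the minus strand (5′ to 3′ as Hist1h2ac is transcribed), from RefSeq (GRCm38.p6). Capitals mark the motifs searched on both strands.
Hist1h2ac to Hist1h2bc: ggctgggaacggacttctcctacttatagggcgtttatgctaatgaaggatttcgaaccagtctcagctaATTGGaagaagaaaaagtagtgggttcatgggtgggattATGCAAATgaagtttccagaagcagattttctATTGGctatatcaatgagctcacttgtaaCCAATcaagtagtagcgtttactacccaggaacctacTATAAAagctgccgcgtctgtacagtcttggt
The region holds 1 octamer (ATTTGCAT or its complement), the motif that POU factors bind, 3 CCAAT boxes (CCAAT or its complement), and a TATA box (TATAAA) on the Hist1h2ac side.

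Promoters of 62 of the 67 members were found in RefSeq, as 250 bases before to 50 after the start. Hist1h2bc, Hist1h3a, Hist1h3f, Hist2h2be and Hist2h4 had no entry. In that window the octamer was in 7 of 18 H2A and 6 of 16 H2B genes, in none of the 28 promoters of the other classes, and in 1.75% of all 27025 genes. Windows of head-to-head genes can overlap, so the same octamer can be counted in both classes. Hist1h2aa and Hist1h2ba, Hist1h2ae and Hist1h2bg, and Hist1h2ah and Hist1h2bk are such pairs with a match in both genes. CCAAT was in every H1, H2A, H2B and H3 promoter found but only 3 of 12 of H4, against 37.9% of all genes. TATAAA was in 35 of the 62 (all genes 14.2%). AAACACA, known as the H1 box, was in 5 of 6 H1 genes and in 7.14% of all genes. A match is a run of letters and not a measured site. The 250 bases before the start of the even gene Hist1h1c (chr13:23738557-23738806, plus strand) and of the varying gene Hist1h1e (chr13:23622559-23622808, minus strand) are set side by side, with the same motifs in capitals.
Hist1h1c: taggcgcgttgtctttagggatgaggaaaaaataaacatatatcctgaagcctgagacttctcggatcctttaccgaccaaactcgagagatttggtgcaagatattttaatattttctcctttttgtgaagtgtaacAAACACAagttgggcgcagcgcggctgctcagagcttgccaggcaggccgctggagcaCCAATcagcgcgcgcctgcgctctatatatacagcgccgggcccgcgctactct
Hist1h1e: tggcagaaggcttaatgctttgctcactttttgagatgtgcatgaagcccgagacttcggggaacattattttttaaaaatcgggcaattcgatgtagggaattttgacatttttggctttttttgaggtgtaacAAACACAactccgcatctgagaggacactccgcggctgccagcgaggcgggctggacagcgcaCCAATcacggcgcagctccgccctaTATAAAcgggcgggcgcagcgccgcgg
Both hold the H1 box and a CCAAT box in the same order, and the TATAAA letters are in that of Hist1h1e only. The genes had 7476, 6525 and 7331 against 273, 401 and 999 counts. The promoter of Hist3h2a (chr11:58954435-58954684, plus strand), a gene that was as even, has an octamer and 2 CCAAT boxes.
Hist3h2a: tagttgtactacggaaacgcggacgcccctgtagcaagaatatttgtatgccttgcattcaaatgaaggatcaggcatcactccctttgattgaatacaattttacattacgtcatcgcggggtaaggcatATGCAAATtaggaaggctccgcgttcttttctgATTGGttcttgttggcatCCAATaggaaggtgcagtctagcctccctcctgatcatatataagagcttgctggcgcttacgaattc

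Because members resemble each other, the split of reads was checked against the second set of tables. Within a class, coding sequences of equal length were 96.4% (H2A), 97.2% (H2B), 97.6% (H3) and 93.9% (H4) identical in the median pair, and 4 pairs were identical: Hist1h4m with Hist1h4n, Hist1h2ao with Hist1h2ap, Hist1h2bq with Hist1h2br, and Hist2h2aa1 with Hist2h2aa2. Of 63 members with counts in both sets, the 2 sets differed by over 2-fold in 3, or 4.76%, near the background of 3.30% of all genes kept. Hist2h3c1 was 2.20 (log2) higher in the gene tables, and Hist1h4k and Hist1h2ah were lower (-1.08 and -1.33). Without replicate 3, 5 members passed this limit, with no share over all genes to set beside it. Hist1h2ah had 15.8, 39.5 and 81.9 counts against 49, 93 and 178. The median ratio over members was -0.10 and over all genes -0.13. Replicate 3 was also the highest library in the second tables, whose counts summed over members to 23906, 27984 and 41984.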

How the data were processed

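For each library the authors deposited 1 gene table and 2 transcript tables. Per the file headers, the gene table holds expected counts and TPM in columns named as RSEM writes them, with a score for uncertainty (the posterior SD of the count), and 1 transcript table adds each transcript's percent of its gene. The other transcript table (the second tables of the text) holds the authors' estimated counts and TPM in columns named as kallisto writes them, summed here per gene. The deposited description files name mm10 and GENCODE M21. Tool versions and use of strand: not given in the sources used here. Rows that name no annotated gene held 0.260, 0.0933 and 0.0577% of the counts and were left out. The level test was limma 3.58.1 in R 4.3.3, on log2(TPM + 0.1) minus the library median, using treat with a band of 1 and a trended prior. BCV and TMM factors came from edgeR 4.0.16 on rounded expected counts with filterByExpr. Fits ran on whole tables and were tested on simulated data. The genes named are the 4 of highest mean TPM in each class, all outside Hist1 or under 1 TPM, those of extreme BCV, those of at least 10 TPM that depend on the quantifier, and 3 per other list. Others were named after their values were seen. Members and lists were chosen with earlier results of these data known. Alternatives tried were the second tables, a pseudocount of 1, no filter, annotated length, RLE factors and leaving out each library. Intervals and floors cover counting error only.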

Additional observations from a re-analysis of the deposited data

Results flagged for a closer look

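The symbol pattern also matches 3 pseudogenes that were left out of the family because they are not protein-coding. The processed pseudogene Hist3h2bb-ps had 6.00, 11.00 and 11.00 expected counts in replicates 1, 2 and 3, above the 3 counts that a count of 0 allows. Of the 100-base windows of Hist3h2ba, which had 8, 2 and 8 counts, 4.85% also occur in another transcript, and this pseudogene shares the most of them. Of the others, Hist1h2al had 1.03, 0 and 0 counts and Hist1h2aj none.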

How the results depend on the processing

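With 3 libraries of 1 group, the range between them rests on each single library. The number of members with a 2-fold range went from 5 without replicate 3 to 51 without replicate 2. It was 50 to 53 with the second tables, RLE factors or a 1.5-fold limit, with no share over all genes to set beside it. The median BCV was 0.261 to 0.404 when a library was left out. Members below the median numbered 9 to 19 when a library was left out and 7 to 15 under the other settings. Members above it numbered 3 or 4 except with no filter on low values, where the larger set of genes lowered the median gene and 14 were called. Shares of all genes called under these settings are not given, so whether the members moved more than other genes was not tested. By expected counts in place of TPM the shares were 31.4% for H1, 20.9% for H2A and 13.2% for H4, and by counts per annotated length H4 was 19.5%. Quantifier-dependent members were 3 to 5 when a library was left out. By TPM they were 46, and there is no share over all genes to set beside either count. The members' TPM summed to 368, 307 and 655 in the gene tables and 135, 158 and 340 in the second tables. Their counts were closer, at 22055, 26059 and 39039 against 23906, 27984 and 41984. The cause was not tested. Of the 28 named members with a level test, no called value reversed under the settings that gave one. With no filter on low values, however, 3 were weaker. Hist2h2be went from -1.99 to -0.63, Hist2h3c1 from -1.67 to -0.31 and Hist2h4 from -2.79 to -1.43. The levels of Hist2h2be and Hist2h3c1 then lay inside the band of 1. With the second tables Hist2h2be, Hist2h3c1 and Hist2h4 had under 1 TPM and no value, and Hist2h4 had none without replicate 3. The range measure and its alternatives were chosen after the data were seen. No paired analysis was possible because there is 1 group. Depth limits the members with few counts, such as Hist1h2an, Hist2h2ab and Hist1h2bp, and shared sequence limits close copies.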
